A study of Rattus norvegicus with 10 samples.

Results

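The mitochondrial fatty acid beta-oxidation enzymes described here were 10 genes of rat liver: Cpt1a, Cpt2, Acadvl, Acadl, Acadm, Acads, Hadha, Hadhb, Eci1 and Decr1. They were chosen by name, and every probe set whose platform annotation gave only a member's symbol was used. This gave 14 probe sets of the 31042 left once controls were set aside, and 10 genes of 14217. A probe set is a group of short probes on the array that reads 1 transcript or a few related ones. The brightest probe set over all arrays stood for each gene, and the others are given beside it.

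The study compared the livers of male Wistar rats, an outbred strain, kept on 5 diets, with 2 arrays per diet. In 4 groups, 42% of dietary energy came from fat: lard, olive oil, coconut fat, or the fish oil that the design text names as cod liver oil. The fifth group ate chow, for which the sources used here give no fat share, and the age of the rats is not given in the sources used here. The diets lasted 12 weeks, and liver was taken after an overnight fast and a CO2 kill. Nothing says whether each array held RNA of 1 rat or of several, so p-values measure only the spread between these samples, which may be technical. Chow also differs from the high-fat diets in amount of fat and possibly in other components, so a difference from chow cannot be assigned to the kind of fat.

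Long-chain fatty acids enter the mitochondrial matrix as carnitine esters. There each round of beta-oxidation shortens the acyl chain by an acyl-CoA dehydrogenase, a hydratase, a hydroxyacyl-CoA dehydrogenase and a thiolase, and releases acetyl-CoA, from which fasted liver makes ketone bodies. Unsaturated chains need auxiliary enzymes that move or reduce their double bonds before the cycle can go on. Many of these genes are known targets of the fatty acid receptor PPAR-alpha, which binds DNA with RXR at direct repeats of AGGTCA. As further background, cod liver oil is rich in long-chain polyunsaturated acids, coconut fat in medium-chain saturated acids, and olive oil in oleic acid.

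Upstream sequence was looked up because the members share this receptor as a known regulator. RefSeq's promoter table for the rat assembly GRCr8 held 8 of the 10 members, all but Acadl and Decr1. In the 250 bases before each start, both strands were searched for AGGTCANAGGTCA, for the looser AGGNCANAGGNCA and for the single AGGTCA, which lies within the first form and overlaps it. Neither repeat form matched in any of the 8 windows. Over all 33469 promoters in the table, 0.0508% held the first form and 0.368% the second. The single AGGTCA was found in 2 of the 8, Acadvl with 2 matches and Eci1 with 1, against 14.1% of all promoters. The windows of Acadm, Hadha and Eci1 lay wholly outside their own gene's bounds, and the other 5 did not. A match is a description of letters and not a binding site, and the absence of a match says only that these letters are not in this window.

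Shown first is the window of Eci1, the member with the widest range between diets, at chr10:13961000-13961249 of GRCr8 on the plus strand. Its capitals, TGACCT, are AGGTCA read on the other strand. The first capital as printed lies 94 bases before the start. Shown second are the 243 bases between Hadhb and Hadha at chr6:31907558-31907800, plus strand. These genes encode both subunits of 1 enzyme and are transcribed away from each other from this gap, which held no match and so has no capitals.
Eci1: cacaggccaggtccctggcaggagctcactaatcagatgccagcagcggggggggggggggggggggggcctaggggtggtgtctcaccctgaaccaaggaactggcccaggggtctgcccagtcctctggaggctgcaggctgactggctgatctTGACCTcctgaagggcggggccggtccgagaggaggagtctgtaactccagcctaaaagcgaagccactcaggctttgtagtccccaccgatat
Hadhb-Hadha: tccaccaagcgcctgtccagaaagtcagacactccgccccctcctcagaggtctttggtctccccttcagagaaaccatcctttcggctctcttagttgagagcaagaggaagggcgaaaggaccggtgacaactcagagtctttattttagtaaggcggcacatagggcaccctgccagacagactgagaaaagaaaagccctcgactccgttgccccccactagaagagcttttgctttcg

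Values are the deposited MAS5 signals, a brightness in arbitrary units, with the trimmed mean of each array at 100. Array medians lay between 28.7 and 31.9 apart from the second lard array at 36.8, which also correlated least with arrays of other diets (mean r = 0.927). Fold changes come from log2(signal + 3.1) in limma, fitted to the 18625 probe sets left after the dimmest 40% were set aside. The threshold was a Benjamini-Hochberg adjusted p of 0.05 over all of them. Hepatocyte markers (8 of 9 listed genes) were bright on every array, with summed signals of 55540 to 63520. In whole liver, fewer cells of a type and less RNA per cell cannot be told apart.

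All 10 members had their highest arithmetic mean signal with fish oil. For Cpt1a this rested on 1 array, and on the log2 scale its difference from chow was 0.47 with lard and 0.46 with fish oil. The lowest mean was with olive oil for 7 of them, and with chow for Cpt1a, Acadl and Decr1. The ratio of highest to lowest diet mean ran from 1.28 for Acadvl to 3.34 for Eci1. Both fish oil arrays lay above the other 8 arrays for 5 of the 10 (Cpt2, Acadvl, Hadhb, Eci1 and Decr1), as they did for 3.72% of all probe sets tested. Of these 10 members, Cpt2 alone passed the test in any of the 8 comparisons, and it did so for fish oil against the other 3 high-fat diets. The test covered 12 of the 14 probe sets. A further tested probe set of Hadha, with signals of 18 to 53.8, gave log2 0.38 for fish oil against the other 3 high-fat diets (limma adjusted p = 0.752). Left out as dim were probe sets of Eci1 with signals of 2.6 to 39.1 and of Hadha with signals of 2.2 to 29.5.

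**Figure D1:**
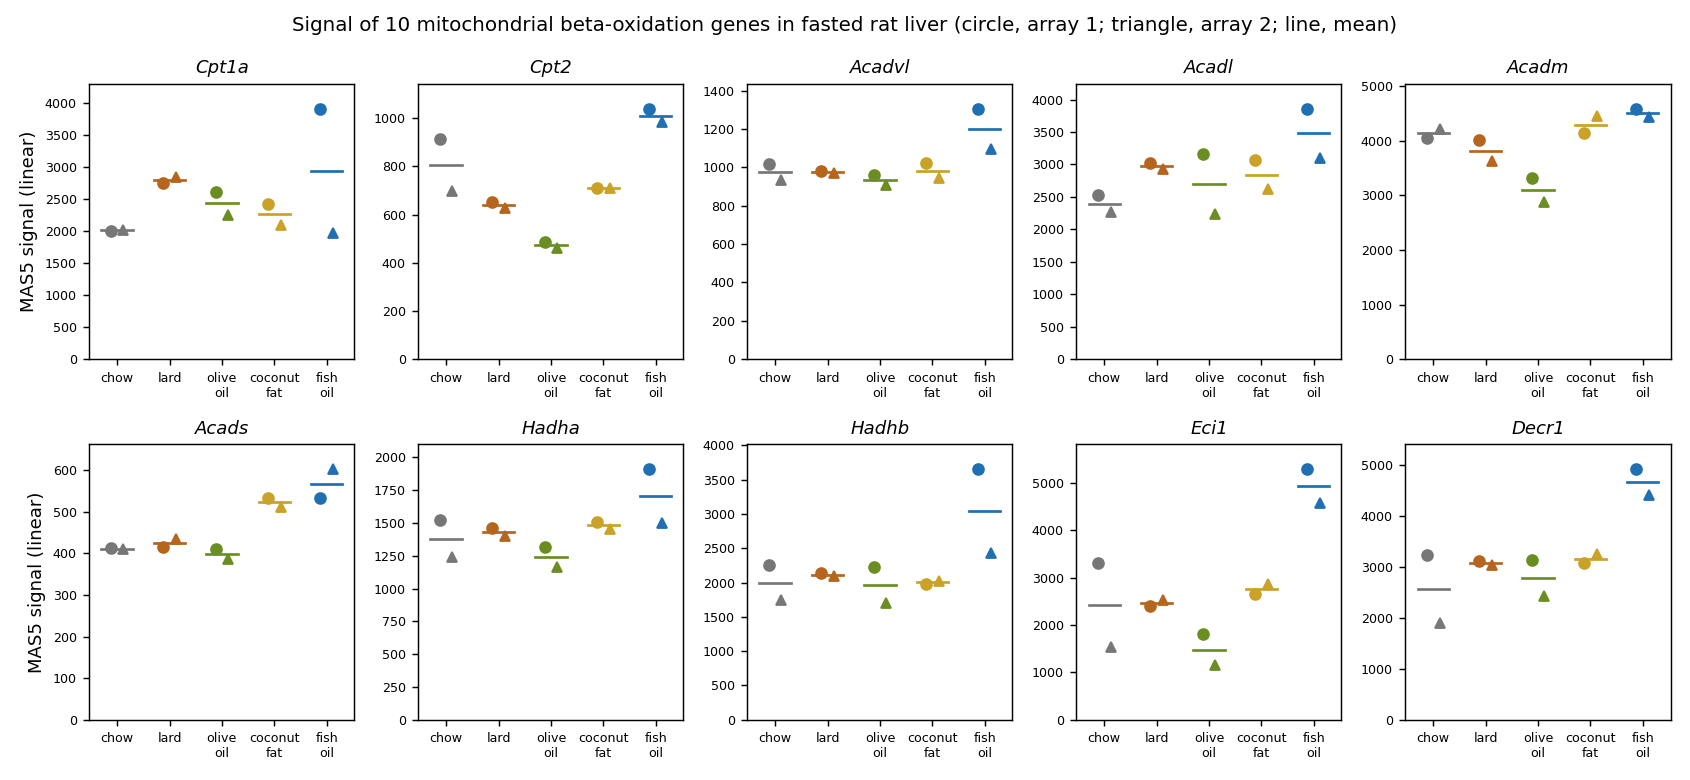
MAS5 signal (arbitrary units, linear axis from 0) of the brightest probe set of each of the 10 genes, by diet. The circle is array 1, the triangle array 2 and the line their mean. The fish oil mean is the highest in every panel, while the fish oil arrays of Cpt1a lie as far apart as 3909.4 and 1970.1.

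Carnitine palmitoyltransferases open and close the carnitine route: Cpt1a, on the outer membrane, makes acylcarnitine and is the step that malonyl-CoA inhibits, and Cpt2, on the inner membrane, turns it back to acyl-CoA. Cpt2 read 1039.8 and 982.4 with fish oil, 650.9 and 626 with lard, 486.9 and 462 with olive oil, and 711.3 on both coconut fat arrays. On the chow arrays it read 913.8 and 699.3. Fish oil was above every other array, olive oil below every other, and the arrays within each high-fat diet lay close together. The fish oil mean was 1011 ± 40.6 (SD, n = 2). With fish oil Cpt2 was 1.68-fold higher than with the other 3 high-fat diets (log2 0.75 ± 0.12 SE, 95% interval 0.48 to 1.02, limma adjusted p = 0.0311). It ranked 47 by p among the probe sets tested. In that comparison 0.424% of the 18625 probe sets passed in either direction, and 0.188% passed as higher. Without either lard, either coconut fat or either fish oil array the log2 difference was 0.71 to 0.79, but the limma adjusted p was 0.0611 to 0.152. It was 0.218 when the prior variance was not allowed to follow brightness.

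Against chow, Cpt2 was 1.26-fold higher with fish oil (log2 0.34, limma adjusted p = 0.646). It was 1.68-fold lower with olive oil (log2 -0.75 ± 0.15 SE, limma adjusted p = 0.153), and neither passed. Its difference from chow was log2 -0.32 with lard and -0.17 with coconut fat, and these did not pass either. Cpt2 thus lay above chow in mean with fish oil and below it with each other high-fat diet. In the test of any difference among the 5 diets its limma adjusted p was 0.0983, the lowest of the members. No member passed that test, as against 0.14% of probe sets, and 5 of the 10 had an unadjusted p under 0.05 (Cpt2, Acadm, Acads, Eci1 and Decr1), as against 9.4%. Without the first or the second chow array 1 member passed, and the probe sets passing went from 26 to 36 and 31 of the 18625.

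Cpt1a read 3909.4 and 1970.1 with fish oil, against 2005.9 and 2019.1 with chow and 2749.5 and 2842.2 with lard. With olive oil it read 2615.2 and 2244.6, and with coconut fat 2424 and 2094.3. One fish oil array was the highest of all and the other the lowest of all, so no order against another diet can be read. Its other bright probe set showed the same split, with 2631.3 and 984.5 on the fish oil arrays and 1097.7 and 1197 on the chow arrays. Fish oil against the other 3 high-fat diets gave log2 0.16 (95% interval -0.28 to 0.61, limma adjusted p = 0.833). Without the first fish oil array this became -0.33, and the difference from chow went from 0.46 to -0.03. The lard arrays lay above both chow arrays, 1.39-fold (log2 0.47, limma adjusted p = 0.664), which did not pass.

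The acyl-CoA dehydrogenases open each cycle and divide the work by chain length. Acadvl acts on very long chains at the inner membrane, Acadl on long chains, Acadm on medium and Acads on short ones. Against the other 3 high-fat diets their fish oil signals were 1.24-fold (Acadvl), 1.23-fold (Acadl), 1.22-fold (Acadm) and 1.27-fold (Acads) higher, and none passed (limma adjusted p = 0.26 to 0.471). These differences were of like size, log2 0.29 to 0.34.

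Acads read 532.1 and 601.6 with fish oil and 533.8 and 511.7 with coconut fat, against 385.2 to 435.6 on the 6 arrays of chow, lard and olive oil. Both diets thus lay above the other 3 with no overlap, and overlapped each other. Acadm read 4591.8 and 4435.1 with fish oil, 4136.8 and 4451.4 with coconut fat and 4061.4 and 4214.9 with chow. Its lard signals were 4018.8 and 3629.9, and its olive oil signals, 3315.5 and 2883.3, were the lowest. For these genes the arrays of a diet lay close together: the residual SD of Acads was at percentile 4.43 and that of Acadm at percentile 11.9. These percentiles are among the 2075 tested probe sets at least as bright as Acads, the dimmest member (mean signal 465). The other members ran from percentile 17.5 (Acadvl) to 93.8 (Eci1), with Cpt1a at 88.7, Decr1 at 83.5 and Hadhb at 80.4.

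Acadvl separated fish oil (1305.8 and 1093.7) from the other 8 arrays (910 to 1020.6). Among those the olive oil arrays lay just below the lard arrays, and every other pair of diets overlapped. Acadl read 3859.3 and 3099.9 with fish oil and 2527.5 and 2261.8 with chow, and was spread widely with olive oil, from 2236.7 to 3162.4. Its fish oil arrays therefore overlapped those of olive oil.

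Coconut fat was set against lard and olive oil because its acids are shorter. Acadm (1.25-fold, limma adjusted p = 0.634), Acads (1.27-fold, limma adjusted p = 0.67) and Cpt2 (1.29-fold, limma adjusted p = 0.677) were higher on both coconut fat arrays than on all 4 others. So was Eci1 (1.46-fold, limma adjusted p = 0.755). For the dehydrogenases of longer chains the difference was log2 0.04 (Acadvl, 95% interval -0.22 to 0.3) and 0.01 (Acadl, -0.33 to 0.35). The remaining members gave log2 0.16 (Hadha), 0.12 (Decr1), -0.02 (Hadhb) and -0.21 (Cpt1a). No member passed, and 0% of the 18625 probe sets passed in limma. An unadjusted p under 0.05 was found for 3 of the 10 members as higher (Cpt2, Acadm and Acads), as against 2.44% of probe sets, and arrays without overlap for 4, as against 6.55%. Against chow, coconut fat gave log2 0.05 (Acadm), 0.34 (Acads), -0.17 (Cpt2) and 0.29 (Eci1). For the same genes in that order, lard gave -0.12, 0.05, -0.32 and 0.12, and olive oil -0.42, -0.05, -0.75 and -0.65. Whether the medium- and short-chain enzymes differed from the long-chain ones was not tested.

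The trifunctional protein carries out the later steps of the cycle on long chains. Hadha, its alpha subunit, holds the hydratase and hydroxyacyl-CoA dehydrogenase, and Hadhb, its beta subunit, the thiolase. Hadhb read 3649.7 and 2428.7 with fish oil and 1698.2 to 2250.1 on the other 8 arrays, so fish oil did not overlap any diet. Hadha read 1908.3 and 1497.5 with fish oil and 1162.1 to 1521 on the others, an overlap. Against the other 3 high-fat diets Hadhb was 1.47-fold higher (limma adjusted p = 0.21) and Hadha 1.22-fold (limma adjusted p = 0.406), and neither passed. Both subunits were higher on the same array of the pair in chow (log2 0.29 for Hadha and 0.36 for Hadhb), olive oil (0.18 and 0.39) and fish oil (0.35 and 0.59).

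Eci1 and Decr1 serve unsaturated acids. Eci1, enoyl-CoA delta isomerase, moves a double bond into the position that the cycle can use, and Decr1, dienoyl-CoA reductase, removes a conjugated one with NADPH. They had the largest fish oil signals relative to chow of the 10. Eci1 read 5280.1 and 4579.8 with fish oil, 2645.3 and 2867.9 with coconut fat and 2390.3 and 2529.2 with lard. With olive oil it read 1801.4 and 1152, and with chow 3302.6 and 1541.8. Both fish oil arrays were clear of all others, and the chow arrays spanned those of lard and coconut fat. Its probe set carries the suffix for probes that match several transcripts, so the signal cannot be assigned to Eci1 alone.

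Against the other 3 high-fat diets Eci1 was 2.3-fold higher (log2 1.2 ± 0.24 SE, 95% interval 0.66 to 1.74, limma adjusted p = 0.0752) and against chow 2.18-fold (limma adjusted p = 0.281), and neither passed. Without the first or the second chow array the first of these passed (limma adjusted p = 0.0124 and 0.0122), as it did with chow left out of the fit (0.0114). Decr1 read 4905.3 and 4406.1 with fish oil and 3236.8 and 1896.3 with chow. With lard, olive oil and coconut fat it read 2422.3 to 3238.6, so fish oil again stood clear. It was 1.56-fold higher against those 3 diets (log2 0.64 ± 0.18 SE, limma adjusted p = 0.182) and 1.88-fold against chow (limma adjusted p = 0.216), and neither passed. With chow left out of the fit the limma adjusted p of Decr1 was 0.0497. Without the first chow array, the differences from chow passed for both, at log2 1.67 for Eci1 (limma adjusted p = 0.035) and 1.29 for Decr1 (limma adjusted p = 0.0334). Without the second chow array they were 0.57 (limma adjusted p = 0.747) and 0.52 (limma adjusted p = 0.602).

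**Figure D2:**
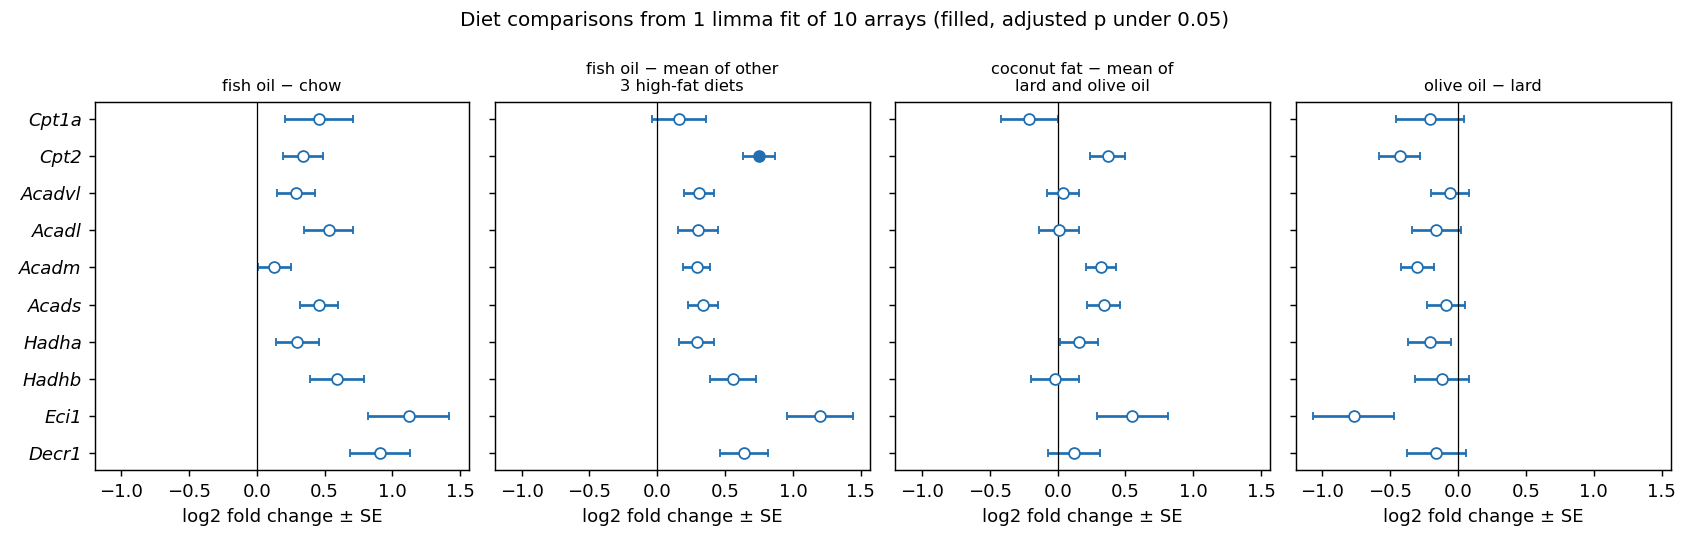
log2 fold change with its SE from limma for each of the 10 genes, in 4 comparisons: fish oil minus chow, fish oil minus the other 3 high-fat diets, coconut fat minus lard and olive oil, and olive oil minus lard. Filled points passed the threshold: Cpt2 in the second panel is the only one, and all 10 points lie right of 0 in both fish oil panels and left of 0 in the last.

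Read as a list, the members lay above 0 in 10 of 10 cases in both fish oil comparisons. These comparisons share the fish oil arrays and are not independent. Nor are the members independent of each other: 36 of their 45 pairs had a Pearson r above 0.5 over the 10 arrays. Against the other 3 high-fat diets the median was log2 0.33, where the median of all 10470 genes tested was -0.01 and 49.1% of them lay above 0. There 1 of the 10 passed, 8 had an unadjusted p under 0.05 as higher (4.91% of probe sets), and 5 did not overlap (5.96%). Against chow the median was 0.46, with -0.01 for all genes. None passed in limma (0.156% of probe sets), 6 had an unadjusted p under 0.05 (3.54% as higher), and 8 did not overlap (17.5%). Such shares are over all probe sets tested, not over those of like brightness. The members' brightest probe sets lay at percentiles 93.3 to 99.4 of mean log2 signal. Without the first fish oil array the median was 0.29 against chow and 0.26 against the other 3 high-fat diets. In each of these 9 of 10 members lay above 0. Without the second fish oil array the medians were 0.58 and 0.56.

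The other diets gave smaller differences, and all comparisons with chow share its 2 arrays. For lard the median was 0.08 with 8 of 10 above 0, and none passed in limma (0.0161%), nor had an unadjusted p under 0.05 (7.99% in either direction). Cpt1a, Acadl and Acads lay above both chow arrays (23% of probe sets) and Cpt2 and Acadm below both (16.7%). Without the second chow array the lard median was -0.08 with 3 of 10 above 0, without the first it was 0.24, and with arrays shifted to the same 75th percentile it was 0.01 with 5 of 10. For olive oil the median was -0.05 with 3 of 10 above 0, and none passed in limma (0.0268%). Acadm was 1.34-fold lower there (log2 -0.42 ± 0.12 SE, limma adjusted p = 0.368), and it and Cpt2 had an unadjusted p under 0.05 (4.03% as lower). For coconut fat the median was 0.14 with 9 of 10 above 0, and none passed in limma (0%), while Acads had an unadjusted p under 0.05 (2.54% as higher). The mean of the 4 high-fat diets gave a median of 0.18, with none past the threshold in limma (0.0376%) and an unadjusted p under 0.05 for Decr1 and Acadl (3.84% as higher). Without the second chow array the medians for olive oil, coconut fat and this mean were -0.22, -0.04 and -0.01.

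Olive oil and lard can be compared without chow. All 10 members were below 0 with olive oil, median log2 -0.18, and 7 of the 10 did not overlap (18.9% of probe sets as lower). Without the second olive oil array the median was -0.07 and 3 of 10 lay above 0, and without the first it was -0.33. None passed in limma, and 0% of all probe sets did. Unadjusted p under 0.05 was found for Cpt2 (-0.43), Acadm (-0.3) and Eci1 (-0.77), as against 3.69% of probe sets as lower.

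The members also differed within a diet. In chow, 8 of 10 were higher on the first array than on the second, in olive oil 10 of 10, and in fish oil 9 of 10, with medians of log2 0.23, 0.21 and 0.23. Over all probe sets tested the first array was higher in 52.5%, 50% and 53.2%. In lard (7 of 10) and coconut fat (5 of 10) the median was 0.03. The widest gaps were those of Eci1 in chow (1.1), Cpt1a in fish oil (0.99), Decr1 in chow (0.77) and Eci1 in olive oil (0.64). These gaps reach the size of the fish oil differences of most members.

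Fasn, the fatty acid synthase that consumes malonyl-CoA, and Acaca, the carboxylase that makes it, ran the other way in these 3 diets. Fasn read 105.8 and 1096.8 on the chow arrays, 1386.1 and 3788.4 with olive oil, and 59.6 and 753.4 with fish oil. With lard (822.7 and 520.6) and coconut fat (1841.8 and 579.6) the first array was the higher. Acaca was lower on the first array than on the second by log2 1.65 in chow, 0.67 in olive oil and 1.21 in fish oil. Acacb and Mlycd, also genes of malonyl-CoA control, did not run this way in all 3 diets. Acacb read 8 and 40.4 with chow but 43.8 and 26.2 with fish oil. Mlycd read 486 and 423.8 with chow but 512.6 and 539.8 with fish oil. Fasn and Acaca are lipogenic genes known to respond to feeding, and their part in the members' spread was not tested.

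**Figure D3:**
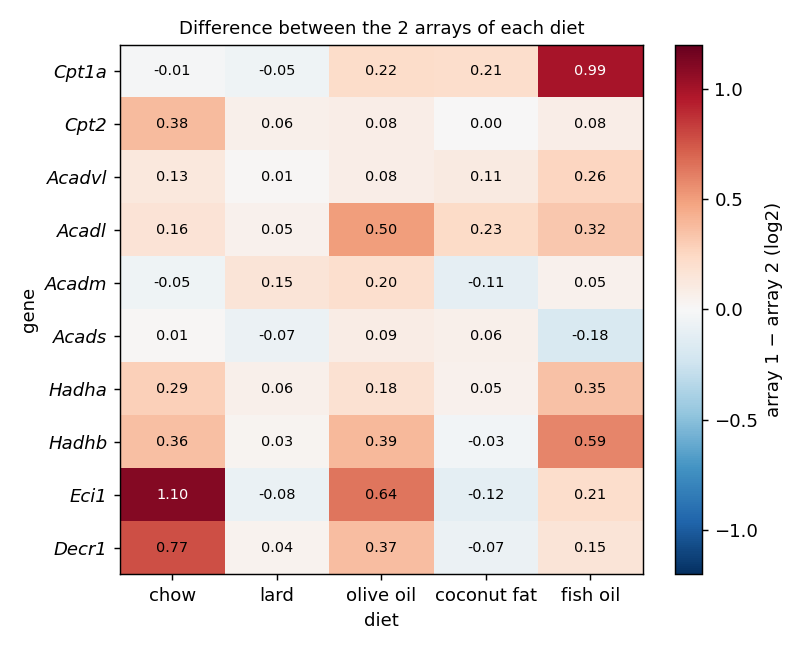
Array 1 minus array 2 in log2 for each gene (rows) and diet (columns), as a colour from blue (below 0) to red (above 0) with the value in each cell. Red prevails in chow, olive oil and fish oil, while lard and coconut fat are pale, and the darkest cells are Eci1 in chow (1.1) and Cpt1a in fish oil (0.99).

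Other genes of the pathway were read from lists. Of 11 other mitochondrial beta-oxidation enzymes, 10 lay above 0 for fish oil against the other 3 high-fat diets, with a median of 0.25, and none passed. The largest were Acad11, a dehydrogenase (0.68, limma adjusted p = 0.231), and Acaa2, the matrix thiolase (0.48, limma adjusted p = 0.258). Of 11 genes of acyl activation and transport 7 lay above 0, median 0.33, and none passed. The largest differences were Slc22a5, the plasma membrane carnitine transporter (0.88, limma adjusted p = 0.388), and Crat, carnitine acetyltransferase (0.84, limma adjusted p = 0.306). Slc25a20, the inner membrane carrier that works beside Cpt2 and was picked after its values were seen, read 1102.4 and 1023.3 with fish oil and 473.6 to 803.6 on the other 8 arrays (limma adjusted p = 0.15 against the other high-fat diets).

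Of the 4 genes of malonyl-CoA control 1 lay above 0, median -0.8, with Fasn at -2.41 (limma adjusted p = 0.348) and Acaca at -1.14 (limma adjusted p = 0.288). Of 9 regulators 3 lay above 0, median -0.05, and none passed. The largest were Ppargc1a (0.73) and Ppara (0.62), whose probe sets were dim, at or below the brightest bacterial control of 12.8 on 1 and 2 arrays. Of 17 general mitochondrial genes 15 lay above 0, median 0.19, and none passed. Idh2, a matrix isocitrate dehydrogenase (0.86, limma adjusted p = 0.119), and Hspd1, a matrix chaperone (0.45, limma adjusted p = 0.101), were largest.

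The PPAR-alpha targets outside mitochondrial beta-oxidation had the largest median, 0.93 over 13 of the 16 listed, with 11 above 0 and 4 past the threshold as higher. Ehhadh, the peroxisomal bifunctional enzyme, read 7370 and 6385.6 with fish oil and 1735.6 to 3318.5 on the other 8 arrays, and rose 2.8-fold (limma adjusted p = 0.000821). Pex11a, a peroxisome division factor, rose 2.17-fold (limma adjusted p = 0.0433) and Acot2, a mitochondrial acyl-CoA thioesterase, 1.91-fold (limma adjusted p = 0.0445). Acot1, the cytosolic thioesterase, read 989.8 and 344.3 with fish oil and 17.6 to 29.6 with the other high-fat diets, and rose (limma adjusted p = 0.00246). On the chow arrays it read 8.8 and 1.5, below the Trpn bound of 12.8. Ehhadh, Acot1 and Pex11a also rose against chow (limma adjusted p = 0.00364, 0.00136 and 0.032). Pex11a and Acot2 lay close to the threshold against the other high-fat diets, where 6 probe sets passed without the intensity trend in place of 79. Whether single list or marker genes kept their calls under the alternative settings was not tested.

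**Figure D4:**
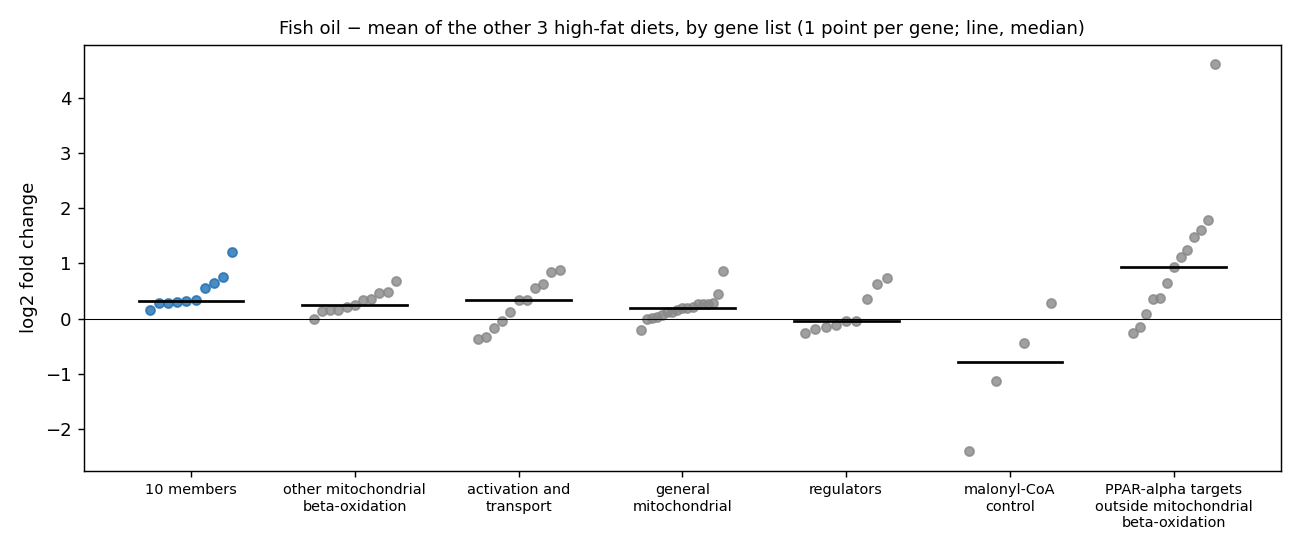
log2 difference of fish oil from the other 3 high-fat diets for the members and 6 lists of related genes, with a point per gene, sorted by value, and a line at each list's median. The median is 0.33 for the members, 0.25 for other mitochondrial beta-oxidation enzymes, 0.19 for general mitochondrial genes and 0.93 for the PPAR-alpha targets outside the pathway.

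Marker genes of other cell types were summed on each array. Summed signals of Kupffer cell and macrophage markers (8 of 10 listed) were 2434 to 2584 with fish oil and 2810 to 4031 on the other 8 arrays. Of these 8 genes 7 lay below 0 against the other 3 high-fat diets, and none passed. Cd68 (log2 -0.44) and Cd74, a chaperone of antigen presentation (-0.65), were the only ones without overlap there. Adgre1 (0.02) and C1qb (-0.02) differed little. Against chow, Cd74 fell (limma adjusted p = 0.045). Lymphocyte markers (5 of 6) summed to 92.8 to 123.4 with fish oil and 138.2 to 194.6 on the others. Of these, Ptprc was the brightest on every array and the only one without overlap. It read 61.6 and 47.7 with fish oil and 74.8 to 115 on the others. Cd3e and Cd2 overlapped, and Cd3d and Cd79b were never above the Trpn bound of 12.8. Red blood cell markers (3 of 5) summed to 4290 to 5790 with fish oil and 5499 to 10140 on the others, an overlap. Hepatocyte markers summed to 60960 to 63520 with fish oil and 55540 to 62880 on the others, an overlap. The sums of stellate cell and fibroblast, endothelial, cholangiocyte and adipocyte markers with fish oil also overlapped those of the other arrays. The part of these cells in the members' differences was not tested.

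The genes whose pattern over the 10 arrays was most like the members' mean, of 10460 ranked, were Fam234a (Pearson r = 0.951), Ech1 (0.947), Cyp4a1 (0.94), Vnn1 (0.938), Sugct (0.934) and Suclg1 (0.928). These are descriptions over arrays that share diets and scaling. Ech1, a dienoyl-CoA isomerase of unsaturated acids, read 5095.8 and 3773.9 with fish oil, 3501.5 and 1466.2 with chow, and 929.7 to 2604.8 with the other diets. Its chow arrays lay far apart, as those of Eci1 did, and fish oil stood clear of all. Cyp4a1, a fatty acid omega-hydroxylase, read 5813.2 and 5820.1 with fish oil and 1266.3 to 3657.5 on the other 8 arrays. Against the other 3 high-fat diets neither Ech1 (log2 1.24, limma adjusted p = 0.123) nor Cyp4a1 (log2 1.24, limma adjusted p = 0.0686) passed.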

How the data were processed

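Total RNA of rat liver, taken after an overnight fast, was hybridised as biotin-labelled cRNA to 1-colour Affymetrix arrays, 2 per diet. The values are the signal intensity that the authors deposited for each probe set, made with MAS5 per the submitters' processing notes; its version is not given in the sources used here. From the values, the 2% trimmed mean of each array is 100. Background correction and scaling were thus the authors', and scanner files and detection calls were not used here. For arrays, their number limits the precision.

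The 57 control probe sets were left out of 31099, 3.1 (the 10th percentile) was added, log2 was taken, and the dimmest 40% by mean over all arrays were set aside. limma 3.58.1 in R 4.3.3 fitted 1 mean per diet over all 10 arrays, with an intensity trend, 5 residual degrees of freedom and Benjamini-Hochberg adjustment; 8 comparisons and 1 F-test over the diets were made. The script was tested on simulated data. Of the probe sets, 20826 had 1 symbol, 436 several and 9780 none; probe sets with several were not named.

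Members and lists were chosen with earlier results of these data known. The text names all members, list genes past the threshold or otherwise the 2 with the largest fish oil difference from the other high-fat diets, and the 6 genes most like the members' mean. Over the 10 pairs of diets, arrays with the same replicate number did not deviate together (r = -0.03 to 0.08). Among the members, however, 8, 10 and 9 of 10 were higher on the first array in chow, olive oil and fish oil. Alternatives were other scalings, offsets and filters, no intensity trend, fewer diets in the fit, a replicate block, and leaving out each array.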

Additional observations from a re-analysis of the deposited data

How the results depend on the processing

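With 2 arrays per diet, 1 array can decide a call. The count of members past the threshold for fish oil against the other 3 high-fat diets was 1. It was 0 without the intensity trend, 3 with only the diets compared in the fit, and 0 to 2 with 1 array left out. Leaving out 1 array gave counts of 0 to 2 for fish oil against chow and 0 to 1 for any difference among the diets. Members' median log2 differences then ran from 0.29 to 0.58 for fish oil against chow, 0.26 to 0.56 against the other 3, -0.08 to 0.24 for lard, -0.22 to 0 for olive oil, -0.04 to 0.23 for coconut fat and -0.01 to 0.28 for the mean high-fat diet against chow, 0.07 to 0.21 for coconut fat against lard and olive oil and -0.33 to -0.07 for olive oil against lard. Cpt1a reversed without the first fish oil array, to -0.03 against chow and -0.33 against the other 3; with 1 array left out its values ran from -0.03 to 0.96 and from -0.33 to 0.66. The cause was not tested. With the replicate number as a block, 1 member was called for fish oil against the other 3 (60 probe sets in place of 79) and 0 against chow (20 in place of 29). By the r between diets the numbers did not pair the arrays, though most members went the same way in 3 diets. Without the trend those totals were 6 and 7, and with only the diets compared 120 probe sets passed for fish oil against the other 3. The other scalings, offsets and filters left the members' calls as they were.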
